A study of Mus musculus with 6 samples.

Results

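The AP-1 and immediate early genes described here are Fos, Fosb, Fosl2, Jun, Junb, Jund, Atf3, Egr1, Ier2 and Ier3, 10 of 21887 protein-coding genes on the main mouse chromosomes. They were chosen by name, and a gene was counted as marked in a library when a called H3K4me3 peak touched the gene or the 1 kb on either side of it. H3K4me3 is a histone mark of the promoters of active and poised genes, and it was mapped by ChIP-seq in cochlear progenitors that express Lgr5. Both groups came from C57BL/6 mice of either sex with the Lgr5-EGFP-creERT2 reporter allele, aged P0 to P3, whose cochleae were cultured with B27, N2, IGF-1, heparin sulfate, bFGF and EGF. Cells were then sorted on GFP, which in these mice is expressed from the Lgr5 locus. The neomycin group was exposed for 12 h to neomycin, an aminoglycoside that kills hair cells, and the other group was untreated. Each group had 2 H3K4me3 libraries, and the 2 inputs were not analysed here. Whether the replicates were separate cultures is not stated in the labels, and p-values therefore measure only the spread between these libraries, which may be technical.

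Immediate early genes are transcribed within minutes of a growth factor or stress signal from promoters that are already open, without new protein synthesis. The Fos and Jun proteins pair through leucine zippers to form AP-1, a transcription factor that stress and growth factor kinases control. Atf3 joins the same network after stress, Egr1 is a zinc finger factor induced by serum response factor, and Ier2 and Ier3 are small early response proteins.

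The sequences before 5 of the starts are shown because the peaks described below lie at set distances from them. They run 5′ to 3′ on the coding strand and end at the base before the start, in the GRCm38.p6 build that underlies mm10, and are from RefSeq. Of the 10 genes, 8 matched the promoter table, and Egr1 and Ier2 were not in it. Capitals mark matches to the motifs searched.
Fos, chr12:85473640-85473889, plus strand: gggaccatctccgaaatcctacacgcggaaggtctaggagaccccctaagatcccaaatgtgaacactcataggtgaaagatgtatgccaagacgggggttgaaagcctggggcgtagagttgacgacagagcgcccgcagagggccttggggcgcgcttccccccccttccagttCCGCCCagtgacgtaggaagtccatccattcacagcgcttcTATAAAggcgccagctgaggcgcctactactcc
Jun, chr4:95052223-95052472, minus strand: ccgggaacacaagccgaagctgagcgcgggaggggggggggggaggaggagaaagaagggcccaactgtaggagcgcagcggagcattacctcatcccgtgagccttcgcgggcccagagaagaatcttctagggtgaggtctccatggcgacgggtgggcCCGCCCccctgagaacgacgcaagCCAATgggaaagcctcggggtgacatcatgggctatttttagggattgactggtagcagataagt
Junb, chr8:84978749-84978998, minus strand: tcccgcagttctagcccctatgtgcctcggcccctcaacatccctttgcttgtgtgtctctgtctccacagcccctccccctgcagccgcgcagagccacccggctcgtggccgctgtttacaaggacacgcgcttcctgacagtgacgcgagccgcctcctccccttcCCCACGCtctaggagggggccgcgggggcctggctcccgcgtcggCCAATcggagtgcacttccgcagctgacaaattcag
Jund, chr8:70697489-70697738, plus strand: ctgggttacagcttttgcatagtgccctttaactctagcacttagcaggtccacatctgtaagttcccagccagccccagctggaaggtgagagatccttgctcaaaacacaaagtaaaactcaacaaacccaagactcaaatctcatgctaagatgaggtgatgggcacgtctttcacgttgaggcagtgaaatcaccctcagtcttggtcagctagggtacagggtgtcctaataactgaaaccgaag
Ier3, chr17:35821463-35821712, plus strand: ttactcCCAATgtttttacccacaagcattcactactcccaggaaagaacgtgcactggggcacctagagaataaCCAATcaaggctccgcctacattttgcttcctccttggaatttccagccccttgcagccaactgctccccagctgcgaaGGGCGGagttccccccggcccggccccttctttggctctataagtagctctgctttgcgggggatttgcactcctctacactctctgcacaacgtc

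Motifs were searched on both strands of 300 bases, 250 before each start and 50 from it, and a match is a description of letters only. The GC box GGGCGG was present in 6 of the 8 promoters, namely Fos, Fosb, Fosl2, Jun, Atf3 and Ier3, against 35.7% of all 32851 promoters of this length. The CCAAT box was in Jun, Junb, Atf3 and Ier3 (37.4% of all), the TATA box TATAAA in Fos, 33 bases before the start, and in Junb at the start (13.6% of all), and the EGR core GCGTGGG in Junb alone (5.04% of all). The AP-1 site TGACTCA, the cyclic AMP element TGACGTCA, the serum response element CArG box and the ETS core CCGGAA were in none of the 8 windows, and 5.20%, 1.79%, 1.63% and 14.9% of all promoters held them. Sites outside the windows and near matches to these patterns were not searched, so absence here does not mean that a gene lacks the element. The Jund window held none of the 8 motifs, and the only overlapping matches in the 8 windows were GC boxes with each other in Fosb and Atf3.

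The 4 peak lists differed in the size of their peaks, and this bears on every length below. They held 14203 and 11545 peaks with neomycin and 15938 and 10520 without (replicates 1 and 2). The shortest peak was 48 and 110 bp with neomycin and 187 and 234 bp without, and the median peak 70 and 142 bp against 310.5 and 340 bp. The lists carry no read totals, so depth is unknown, and the pileup, the stacked signal at a summit, was compared only within a list. The untreated lists carry H3K4me2 in their deposited names, although by the labels all 4 libraries are H3K4me3 from a single antibody. Of 20 supporting and progenitor cell markers, 15 were marked in every library, among them Lgr5, with 180 and 329 bp of peaks with neomycin and 758 and 311 bp without, and Sox2, with 48 and 154 bp against 1295 and 1616 bp. Of 12 genes that these cells should lack, 10 had no peak, the liver gene Alb among them. The others, named after their values were seen, were the liver gene Apoa1, with 133 bp in neomycin replicate 2 and 187 bp in untreated replicate 1, and the pigment cell gene Pmel, with 115 and 206 bp with neomycin and 664 bp in untreated replicate 1. The leukocyte gene Ptprc had only 1 peak, of 48 bp, in neomycin replicate 1.

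Each of the 10 genes was marked somewhere. Neomycin replicates 1 and 2 marked 8 and 9 of them, and untreated replicates 1 and 2 marked 9 and 8. Over all 21887 genes the neomycin libraries marked 39.3% and 37.6% and the untreated libraries 51.0% and 39.7%. Fosb, Jun, Junb, Jund and Egr1 were marked in all 4 libraries, which is 5 of 10, against 33.3% of the 13028 genes with a peak in at least 1 library. Fos and Ier2 lacked a peak in neomycin replicate 1, Fosl2 in neomycin replicate 2 and Atf3 in untreated replicate 2. Ier3 alone had peaks in each neomycin library but no untreated one, a pattern of 2.62% of marked genes. None had the reverse pattern, which 7.57% of marked genes had. Relabelling the 4 libraries allows no p under 0.333, so presence was not tested.

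**Figure D1:**
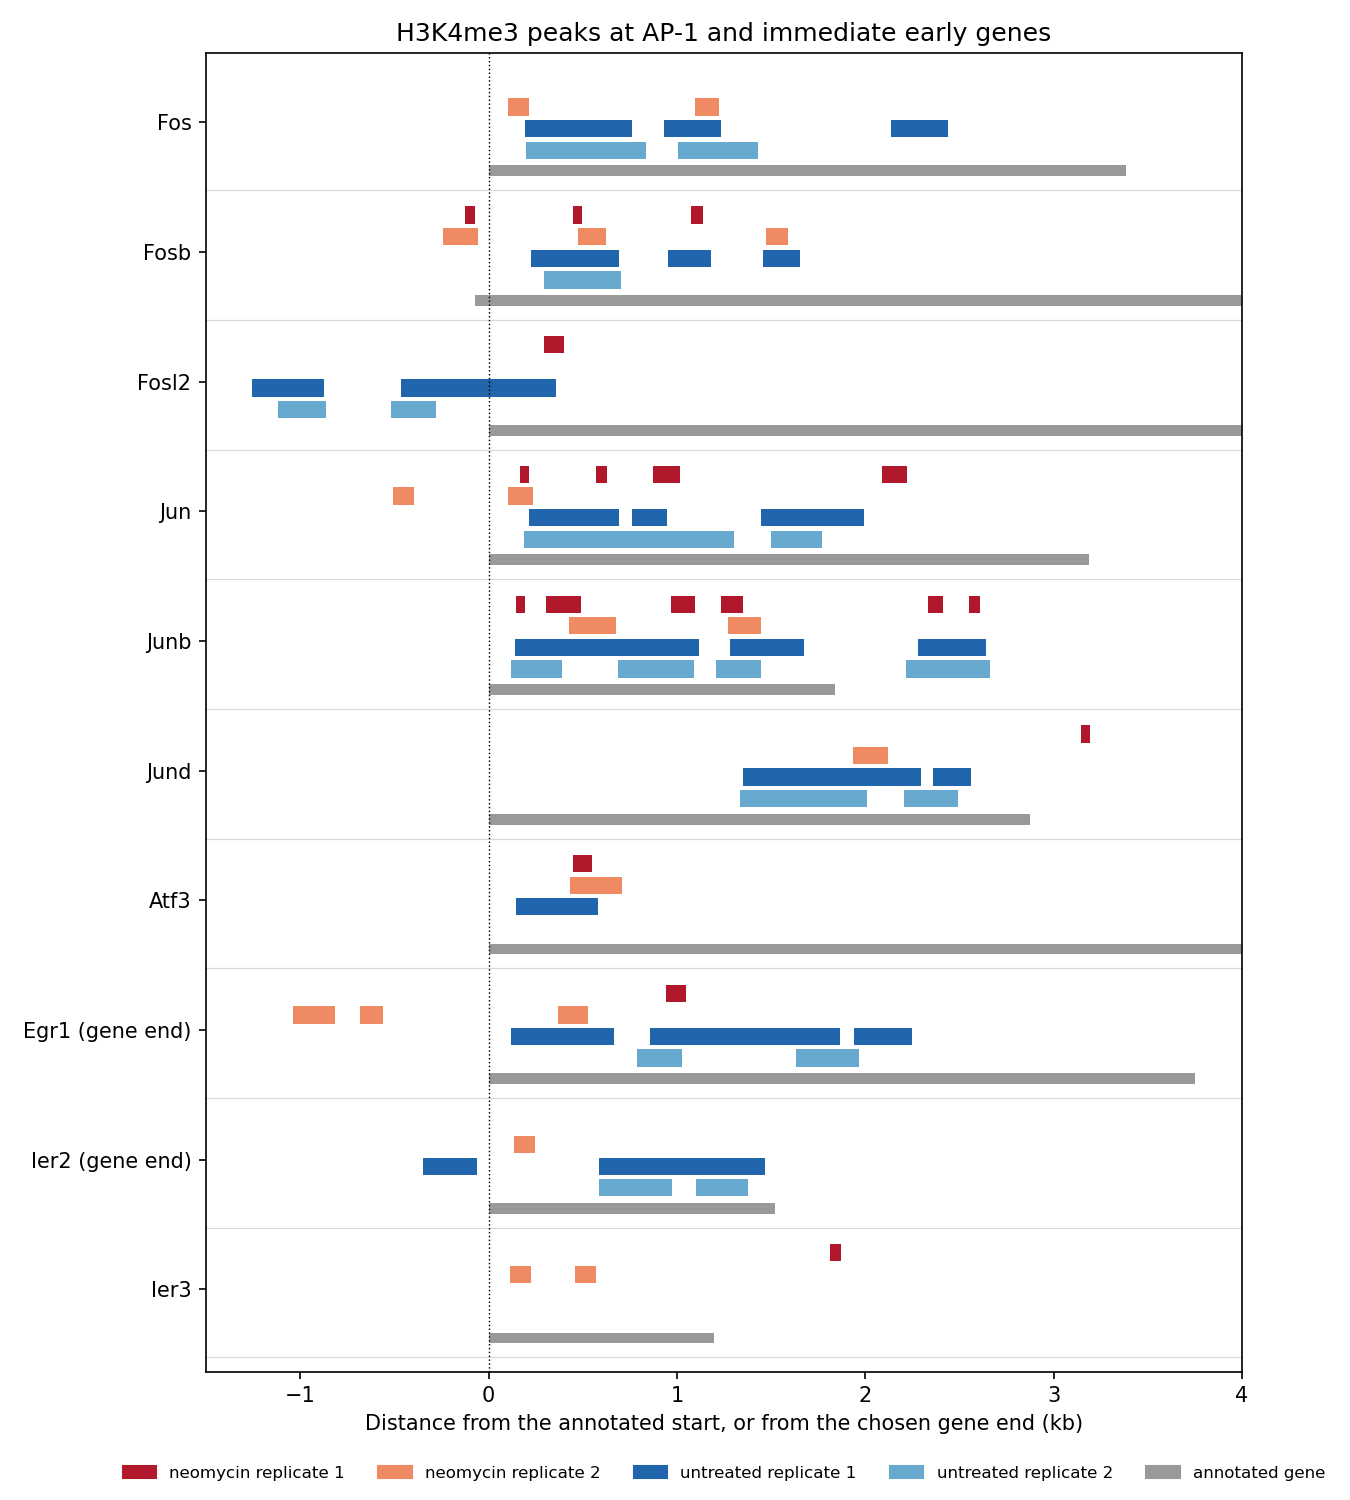
Peaks of each library (coloured bars) at the 10 genes, by distance in kb from the annotated start along the direction of transcription; Egr1 and Ier2 are drawn from the lower gene coordinate, and grey bars are the annotated genes, cut at the edge of the plot for Fosb, Fosl2 and Atf3. Untreated peaks are longer, and those of Fos, Jun and Junb begin 120 to 215 bp after the start in both untreated libraries.

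Fos, on chromosome 12 from 85473890 to 85477274, encodes the prototype Fos protein. No peak was called in neomycin replicate 1, where the nearest one was 99.4 kb away, and neomycin replicate 2 had 243 bp of peaks. The untreated libraries had 1183 and 1063 bp, so both lay above both neomycin libraries. The first untreated peaks, of 572 and 638 bp, began 192 and 200 bp after the start and had their highest pileup at 517 and 423 bp. The pair of neomycin peaks, of 115 and 128 bp, began 101 and 1098 bp after the start. The first shared bases with the first peak of each untreated library, and the second with the second peak of each. Of the 243 bp, 152 bp were also covered in an untreated library. Within their own lists, the longest untreated peaks exceeded 86.4% and 89.3% of peaks in length, and the longest neomycin peak 36.6%.

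Fosb, whose shorter splice form accumulates with repeated stimulation, lies on chromosome 7 from 19302696 to 19310118. Its peaks summed to 167 and 447 bp with neomycin and 900 and 404 bp without, so the groups overlapped. The gene is on the minus strand, and its listed start, 19310045, lies inside this span rather than at its upper end. Both neomycin libraries had a peak just before the listed start, from position -127 to -73 and from -242 to -58. Both of these peaks covered the upper end of the span, 19310118, so they do not lie before the gene as annotated. Neither untreated library had one there, and their first peaks began 226 and 297 bp after the start. A peak around 0.5 kb after the start was common to all 4 libraries, and 22 bp were covered in every one.

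Fosl2, which encodes the Fos-related protein Fra-2, lies on chromosome 5 from 32136472 to 32157840. With neomycin it had a single peak of 106 bp in replicate 1, starting 296 bp after the start, and none in replicate 2, whose nearest peak lay 2.538 kb from the gene. The untreated libraries had 1207 and 493 bp, both above the neomycin values. Untreated replicate 1 had a peak of 824 bp from position -466 to 357, the only peak at any of the 8 annotated starts that covered the start base. In untreated replicate 2 both peaks lay outside the gene, 282 and 862 bp before it, and the longer of them exceeded 22.2% of its list. Both untreated libraries thus had peaks upstream of Fosl2, and untreated replicate 1 alone had a peak across the start.

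Jun, the main partner of Fos in AP-1, lies on chromosome 4 from 95049036 to 95052222. It carried 4 and 2 peaks with neomycin, 387 and 247 bp in all, and 3 and 2 peaks without, 1211 and 1388 bp in all. Both untreated values exceeded both neomycin values. All 4 libraries had a peak that began 101 to 215 bp after the start, and in untreated replicate 2 it ran on for 1115 bp, longer than 99.1% of that list. Neomycin replicate 1 divided the same stretch into short peaks, of which the longest, 145 bp, exceeded 91.2% of its list. The 110 bp peak of neomycin replicate 2 that lay 396 bp before the gene fell in Junos, a long noncoding RNA gene that begins 95 bp from Jun on the opposite strand, and could belong to either.

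Junb, a Jun protein that restrains Jun in several settings, lies on chromosome 8 from 84976909 to 84978748. Its peaks summed to 617 and 427 bp with neomycin and 1731 and 1359 bp without, and the groups did not overlap. Over the 4 libraries together it had the most peaks of the 10 genes, 6 and 2 with neomycin and 3 and 4 without. Every base covered in a neomycin library (898 bp) was also covered in an untreated one, and these bases made up 47.0% of the untreated ones. Relative to its own list, Junb in neomycin replicate 1 was long, with a peak of 189 bp that exceeded 96.9% of the list. Beyond the gene, peaks that began 379 to 714 bp from it were called in neomycin replicate 1, as 2 pieces, and in both untreated libraries, but not in neomycin replicate 2.

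Jund, the Jun protein that is expressed steadily rather than induced, lies on chromosome 8 from 70697739 to 70700616. It had the lowest neomycin values among the genes marked in every library, 48 and 189 bp, against 1145 and 963 bp untreated. The groups did not overlap, in bases or in the percentile of the longest peak, which was 0 and 73.9 with neomycin and 98.1 and 91.2 without. No library had a peak within 1 kb of the annotated Jund start. The untreated peaks began 1352 and 1336 bp after it, and the neomycin replicate 2 peak began 1933 bp after it. In neomycin replicate 1 the only peak lay 266 bp beyond the gene, between Jund and Iqcn, which begins 705 bp from Jund, so the gene itself held no peak in that library.

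Atf3, a stress-induced bZIP factor, lies on chromosome 1 from 191170296 to 191183333. It had 103 and 273 bp with neomycin, 434 bp in untreated replicate 1 and none in untreated replicate 2, whose nearest peak was 41.326 kb away. The groups therefore overlapped. Every one of its 3 peaks lay 145 to 707 bp after the start. By the percentile of the longest peak both neomycin libraries (76.4 and 90.6) were above untreated replicate 1 (73.2), the reverse of the order in bases.

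Egr1 lies on chromosome 18 from 34861207 to 34864956. Its peaks summed to 109 and 509 bp with neomycin and 1865 and 576 bp without, so that the groups were separate but neomycin replicate 2 and untreated replicate 2 were close. Untreated replicate 1 had the longest sum of any of the 10 genes, with 1 peak of 1009 bp. Neomycin replicate 2 had 2 of its 3 peaks outside the gene, 560 and 818 bp below its lower coordinate, where no other library had one.

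Ier2, on chromosome 8 from 84661331 to 84662852, had no peak in neomycin replicate 1, where the nearest lay 1.359 kb from the gene, and 1 of 110 bp in neomycin replicate 2, the shortest length in that list. The untreated libraries had 1167 and 661 bp. Both exceeded the neomycin values, and no base was covered in both groups. Ier3, on chromosome 17 from 35821713 to 35822911, was the reverse in bases, with 56 and 225 bp with neomycin and none without. The nearest untreated peaks to Ier3 lay 42.904 and 42.938 kb away. In neomycin replicate 2 both peaks, of 115 and 110 bp, lay in Ier3, 113 and 460 bp after its start. In neomycin replicate 1 the single 56 bp peak lay 615 bp beyond Ier3 and inside Flot1, a neighbouring gene that lies 409 bp from Ier3. At the start of Ier3 itself, only neomycin replicate 2 had a peak.

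**Figure D2:**
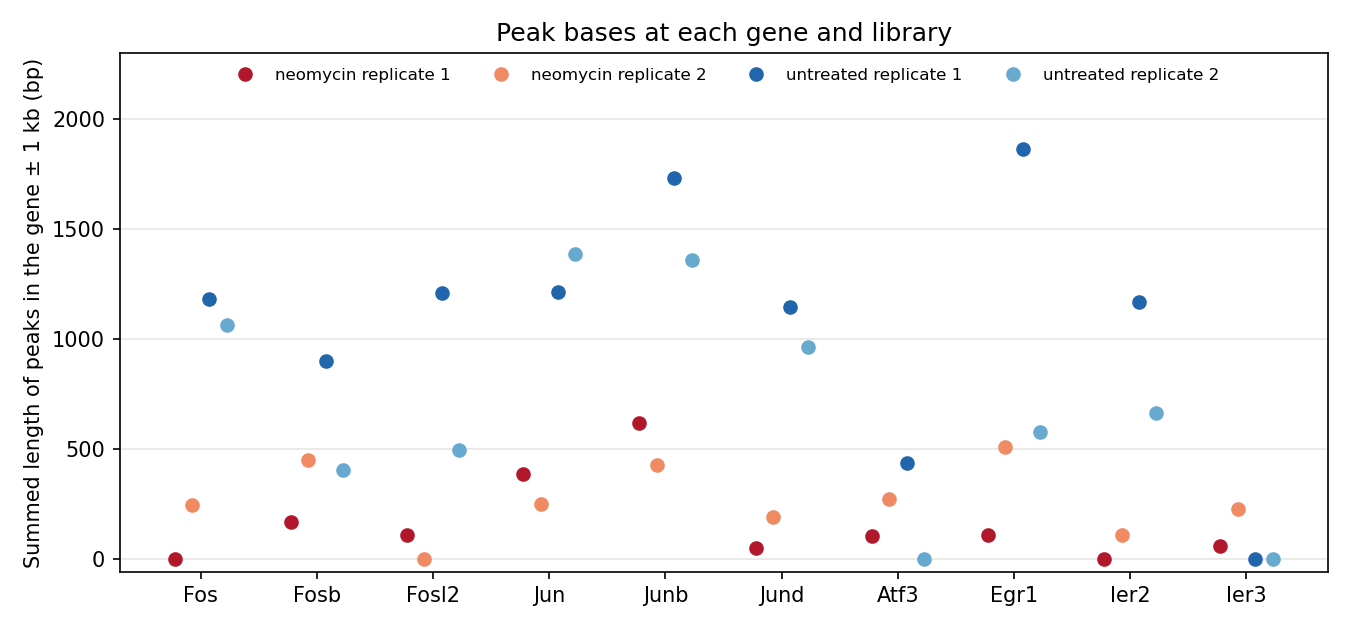
Summed length in bp of the peaks in each gene and 1 kb either side, 1 point per gene and library, with 0 where no peak was called. Both untreated points lie above both neomycin points at 7 genes, and the groups overlap at Fosb and Atf3.

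Across the set, 7 of the 10 genes had more peak bases in both untreated libraries than in either neomycin library. They were Fos, Fosl2, Jun, Junb, Jund, Egr1 and Ier2. This pattern held for 53.2% of all marked genes, so most genes shared it. Ier3 was the 1 gene with the opposite order, against 2.91% of marked genes. The summed length over the 10 genes was 1593 and 2670 bp with neomycin and 10843 and 6907 bp without. The summed length of hair cell markers differed the same way, with 376 and 612 bp over 12 genes with neomycin and 4541 and 2912 bp without. So did that of 20 markers of neurons, glia, fibrocytes, vessels, blood and pigment cells, with 603 and 231 bp against 2659 and 2220 bp. Gene by gene, only 3 of the 12 and 4 of the 20 had more bases in both untreated libraries, so most genes of each list did not share the pattern. The part of these cell types in the members' values was not tested. Of the hair cell markers, Atoh1 had peaks in the untreated libraries alone and Otof and Tmc1 had none, and of the others Coch, Pou3f1, Prrx2 and Twist1 had peaks in the untreated libraries alone, while Cd68, Cdh5, Col1a1, Col1a2, Csf1r, Hbb-bs, Neurog1, Pecam1 and Tyr had none.

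When each gene's longest peak was instead ranked by length within its own list, which takes out the difference in peak size between the lists, the separation was seen at fewer genes. Fos, Jund and Ier2 ranked higher in both untreated libraries (3 of 10, against 23.4% of marked genes), and Atf3 and Ier3 ranked higher in both neomycin libraries (2 of 10, against 12.4%). In this order an unmarked gene was placed below every marked one. The median percentile over the marked members was 77.25 and 72.7 with neomycin and 96.4 and 66.2 without, and over all marked genes 64.4 and 59.4 against 63.3 and 57.3. The members' medians thus lay above those of all marked genes in each library. Untreated replicate 1 set the highest values, and without it the highest remaining median was that of neomycin replicate 1.

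**Figure D3:**
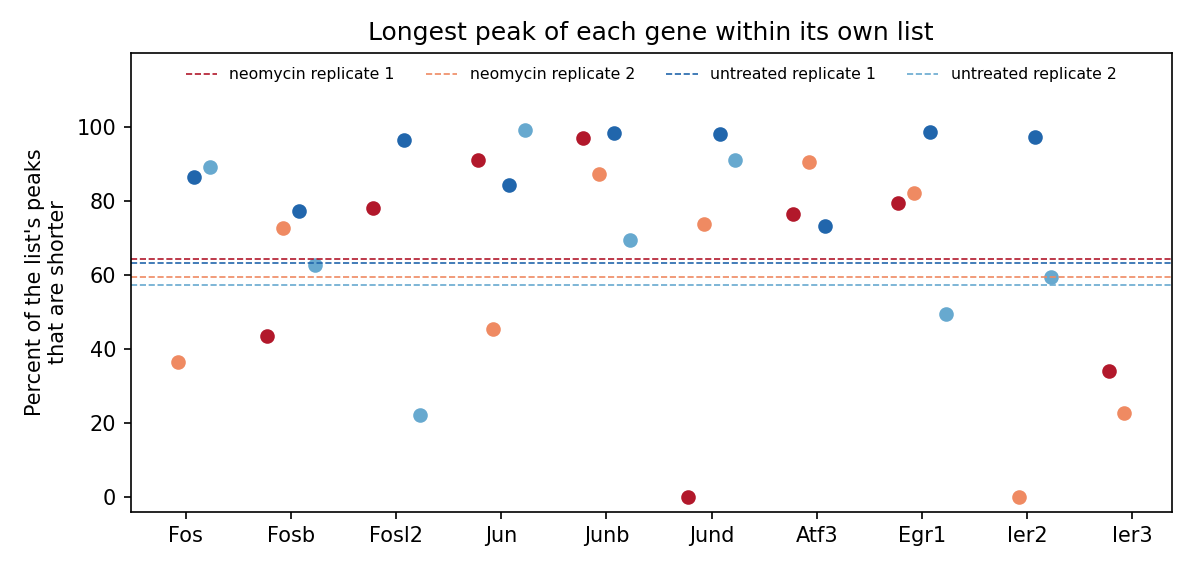
For each gene and library, the percent of peaks in the same list that are shorter than the gene's longest peak; no point is drawn where no peak was called, and dashed lines are the medians over all marked genes of each library. Fos and Jund are higher in both untreated libraries, while Jun, Junb, Fosb and Egr1 show no separation.

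Taken peak by peak, the members' peaks lay near their lists in strength. Their median length was 71 and 137 bp with neomycin and 415.5 and 338 bp without. The list medians were 70 and 142 bp, and 310.5 and 340 bp, so in length only untreated replicate 1 stood clearly above its list. The median pileup of member peaks was 7 and 10 with neomycin and 14 and 10 without. The medians over the whole lists were 7 and 11, and 13 and 11. None of the 18 and 17 member peaks with neomycin reached a -log10 q of 10, the significance that the peak caller gave each peak, against 12 of 22 and 3 of 17 in untreated replicates 1 and 2. Of all peaks in the lists, 5.3% and 2.5% reached it with neomycin and 39.4% and 21.5% without. The 3 in untreated replicate 2 were at Fos, Fosb and Jund, each the first peak after the start. The highest pileup was 9 and 13 with neomycin, at Atf3 and Fosb, and 18 and 14 without, at Egr1 and at both Fos and Fosb. The -log10 q and pileup values are as the authors deposited them, peak by peak.

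The comparison of summed peak length across all genes marked in every library did not call any member. Log2 lengths, less the median of their library, went into a limma fit of 4343 genes. No gene passed a Benjamini-Hochberg adjusted p of 0.05 in either direction (0% of genes each way), and 164 (3.78%) and 248 (5.71%) had an unadjusted p under 0.05 for longer peaks with neomycin and without. Only 5 members had a peak in all 4 libraries and could be tested, and these were not picked at random from the 10. Relative to all genes, Jund was shorter with neomycin, at a log2 difference of -1.87 ± 0.61 (SE, 2 libraries a group, 95% interval -3.16 to -0.58), with limma's adjusted p at 0.348. It ranked 90 of 4343 by p. The centred Jund values were -1.51 and -0.39 with neomycin and 0.88 and 0.95 without, and lower in 2 of 2 neomycin libraries. The value of -1.51 came from a single 48 bp peak, the shortest length in its list, which lay 266 bp beyond the gene.

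The other 4 tested genes had differences within the spread of the libraries. Egr1 differed by -0.54 (95% interval -1.96 to 0.87) and Jun by -0.47 (-1.83 to 0.88). Junb differed by 0.02 (-1.31 to 1.34) and Fosb by 0.45 (-0.83 to 1.73). Their limma adjusted p-values were 0.838 to 0.991, and the intervals leave room for changes of more than a log2 of 1 in either direction for Junb. The median over the 5 was -0.47, beside -0.02 over all genes tested, and it was 0.014 without untreated replicate 1 and -1.03 without neomycin replicate 1. Without neomycin replicate 2, the Jund log2 difference was -2.40, with the 48 bp peak beyond the gene as its only neomycin value. When the libraries were not centred, Jund and Jun passed the limma threshold (-3.46, adjusted p 0.0108, and -2.07, adjusted p 0.0402). In that uncentred fit the median of all genes was itself -1.61.

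A larger share of the members' covered bases lay in the second kb after the start than over all genes pooled. This was described for the 8 genes with an annotated start, over the stretch from 1 kb before to 2 kb after it. The stretch was not limited to the gene, and Ier3 and Junb are only 1199 and 1840 bp long. In neomycin replicate 1 it included the 56 bp peak that lay beyond Ier3 and inside Flot1. In neomycin replicates 1 and 2, 29.7% and 25.2% of the members' covered bases lay in the second kb after the start, and 36.3% and 41.6% in untreated replicates 1 and 2. Over all genes with a single listed start the shares were 5.5%, 6.4%, 5.5% and 4.7%. Without Jund, the members' shares were 29.7%, 22.5%, 29.1% and 32.2%. Before the start lay 4.7%, 15.3%, 9.3% and 7.8% of the members' bases, against 22.2%, 23.2%, 19.7% and 18.9% for all genes. The difference has the same direction in the 4 libraries and in both groups, and it was not tested, since genes are not replicates and these members were chosen with earlier results known.

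**Figure D4:**
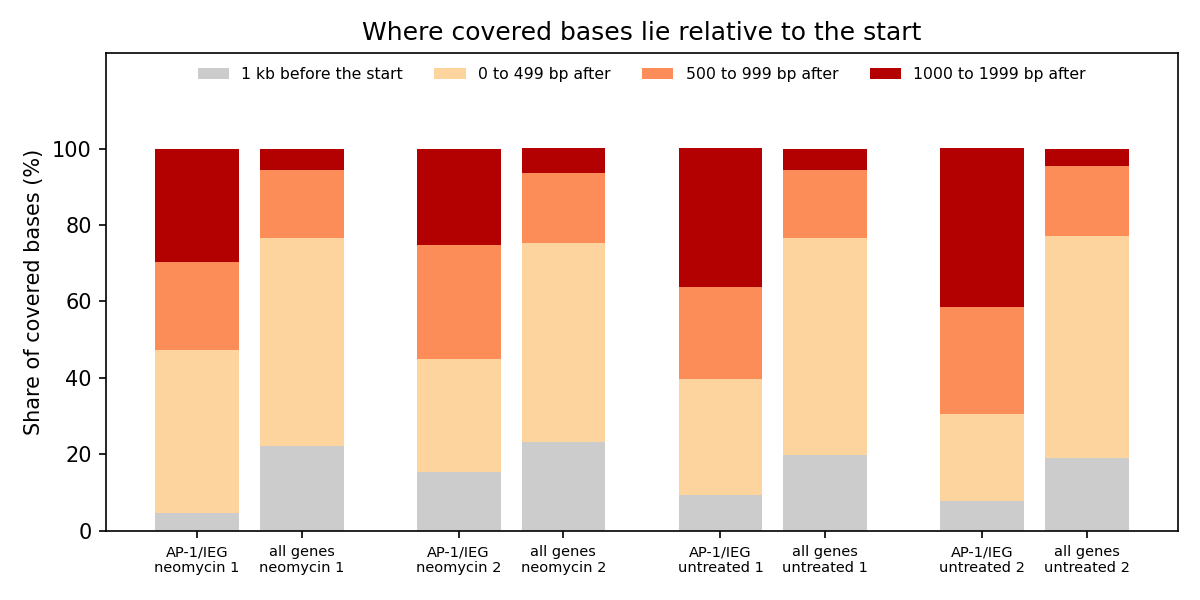
Share in percent of the covered bases from 1 kb before to 2 kb after the start, for the 8 genes with an annotated start (AP-1/IEG) and for all genes with 1 listed start, in each library. The second kb after the start holds 25.2% to 41.6% of the bases at the 8 genes and 4.7% to 6.4% over all genes.

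At the start itself, counted as 1 kb either side of the annotated start or, for Egr1 and Ier2, of the gene end with more marks, 6 and 8 of the 10 genes were marked with neomycin and 8 and 7 without. Over all genes the shares were 34.8% and 33.6% with neomycin and 47.0% and 36.3% without. Fosb, Jun, Junb and Egr1 were marked there in all 4 libraries, 4 of the 9 genes with a mark there, against 30.2% of all genes marked at the start in at least 1 library. No member had a peak there in both libraries of 1 group and in neither of the other, which 2.55% of these genes had for neomycin and 8.48% for untreated. For Ier2 this depends on the end used, 84661331, which was picked for having peaks in more libraries. Within 1 kb of its other end, 84662852, both untreated libraries had peaks and neither neomycin library did. Its true start was not known here, so the counts that include Ier2 are uncertain. Of the 8 genes with an annotated start, 5 and 6 were marked near it with neomycin and 6 and 5 without. Among these marked genes the listed start base lay inside a peak at none with neomycin and at 1 and 0 without, the 1 being Fosl2. For Fosb this depends on the listed start, since both neomycin libraries had a peak over the upper end of its gene span. The shares of all genes marked near a single listed start were 4.3% and 4.8% with neomycin and 18.6% and 22.3% without. Counts this small cannot be told apart from those shares.

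Other genes of the pathway are given from 5 lists chosen by function. Of 16 other AP-1 and related bZIP genes, 9 had a peak in each neomycin library, 13 and 10 in the untreated ones, and 3 in every library. Batf3, a Jun partner of immune cells, and Mafk, a small Maf protein, had peaks only without neomycin, of 284 and 302 bp and of 307 and 253 bp. Batf and Batf2 had no peak in any library. Fosl1, the other Fra protein, had 454 bp in neomycin replicate 2 and 644 bp in untreated replicate 1 and no peak in the other two libraries.

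Of the 37 other immediate early and early response genes, 32 were marked in each neomycin library, 35 and 26 in the untreated ones and 20 in all 4. None had peaks in both libraries of 1 group and in neither of the other. Of the 20 tested for length, 1 and 2 had an unadjusted p under 0.05 for longer and shorter peaks with neomycin, and limma called none after adjustment. These 3, named after their values were seen, were the ERK phosphatase gene Dusp6 (log2 difference 1.63, adjusted p 0.40) and the orphan nuclear receptor genes Nr4a2 and Nr4a3 (-1.89 and -1.44, adjusted p 0.343 and 0.44). The median of the list was -0.17. Only Npas4, a neuronal early gene, had no peak anywhere.

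Among 30 kinase genes of the JNK, p38 and ERK cascades, which act on AP-1, neomycin replicates 1 and 2 marked 25 and 22, the untreated replicates likewise 25 and 22, and 14 were marked in every library. Map2k6, a p38 kinase kinase, had 49 and 142 bp with neomycin and no untreated peak. Map3k20, a stress kinase upstream of JNK and p38, and Rps6ka3, a kinase downstream of ERK, had the reverse, with 506 and 527 bp and 326 and 241 bp without neomycin. Of 15 genes for serum response factor, its partners and other regulators of these promoters, the neomycin libraries marked 12 and 7 and the untreated ones 13 and 11. Nab1, a corepressor of the Egr proteins, had peaks only without neomycin, of 531 and 519 bp.

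Of 20 AP-1 target genes, 9 and 5 had a peak with neomycin (45% and 25%, against 39.3% and 37.6% of all protein-coding genes), 9 and 7 without (45% and 35%, against 51.0% and 39.7%), and 3 in every library. These shares lie near or below those of all genes and are no result about the targets. Lif, a cytokine, had peaks only without neomycin, of 463 and 512 bp. Il6, Plaur, Spp1, Timp1 and the metalloproteinase genes Mmp3, Mmp9, Mmp10 and Mmp13 had no peak in any library. In none of the 5 lists did limma call a gene in either direction (adjusted p under 0.05), with 1 gene in all at an unadjusted p under 0.05 for longer and 5 for shorter peaks with neomycin, and the medians ran from -0.45 for the kinases to 0.40 for the targets.

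**Figure D5:**
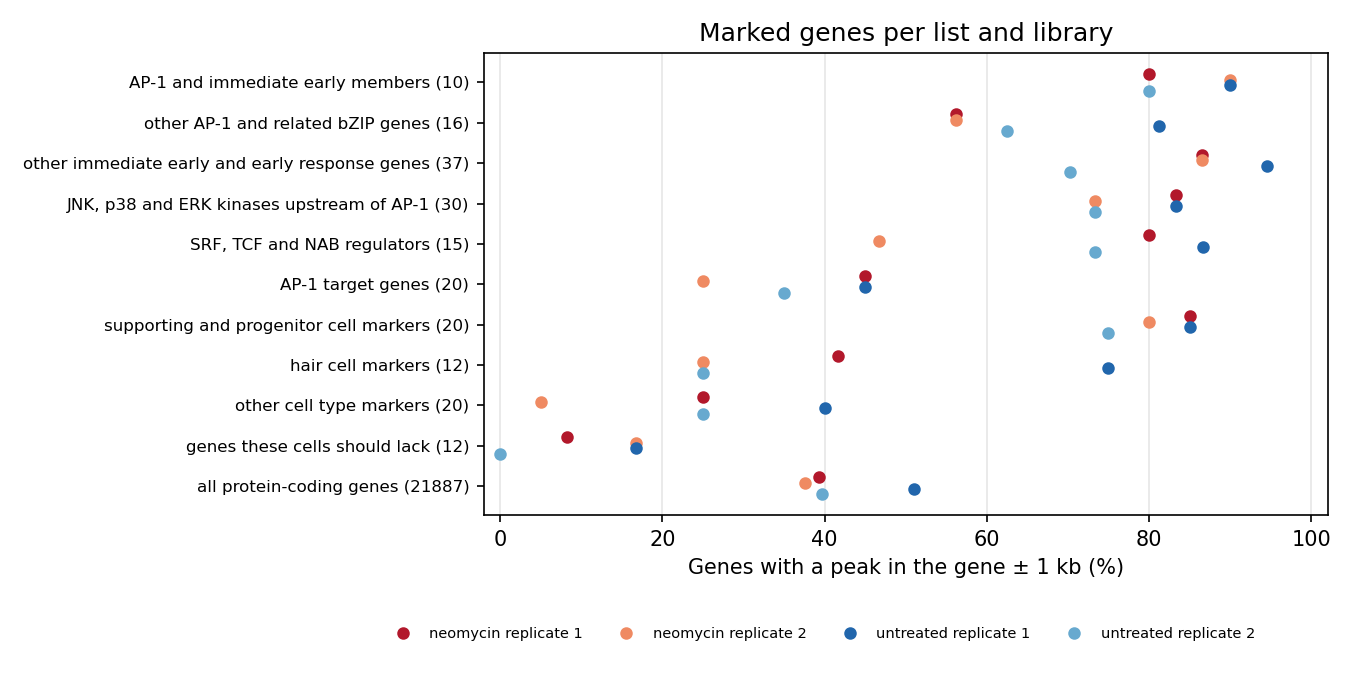
Percent of the genes of each list (number of genes in brackets) with a peak in the gene or 1 kb either side, 1 point per library. The AP-1 and immediate early genes lie at 80% to 90%, the other early response genes at 70.3% to 94.6%, and AP-1 targets at 25% to 45%.

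The genes outside these lists whose peak bases were closest to the median of the 10 members over the 4 libraries (104.5, 245, 1175 and 618.5 bp) were Uhrf2, Sec24c, Rnf114, Tril and Zcchc3. Likeness was the Euclidean distance of log2(1 + bp), which ran from 0.139 for Uhrf2 to 0.28 for Zcchc3. The Uhrf2 values were 111, 252, 1120 and 586 bp.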

How the data were processed

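H3K4me3 peaks of 2 neomycin and 2 untreated libraries were used. The submitters' processing notes name mm10, CASAVA 1.4, Bowtie2, MACS2 and deepTools. For roles, settings and the handling of inputs, the sources used here give nothing. Each deposited list holds, per the file headers, 1 library's peaks with start, end, length, summit and pileup signal, and the deposited fold enrichment ratio and -log10 p-value and q-value of each peak. Positions are 1-based.

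Genes came from RefSeq GRCm38.p6, and starts from its promoter table (79.9% of genes); for other genes the end with peaks in more libraries was used. Peaks touching the window by 1 bp counted. Log2 summed lengths were compared with limma 3.58.1 (R 4.3.3), by group alone, with Benjamini-Hochberg adjustment over all genes; counting used Python 3.11.15, pandas 2.3.3 and numpy 2.4.6. Both steps were tested on simulated data. The members and lists were chosen with earlier results of these data known. All 191 list genes matched a symbol. Named were the members, genes within 1 kb of them, list genes of 1 group alone (at most 4 a list and direction, alphabetically), 5 cell type checks and the 5 most similar genes; others are said to be chosen after their values were seen. Fosl1, Npas4, Apoa1, Pmel and unmarked list genes were such additions. Some list genes are not reported here. Alternatives covered the window, overlap, threshold, list length, centring, span, a replicate block and each library left out. Replicate numbers did not pair the libraries.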

Additional observations from a re-analysis of the deposited data

How the results depend on the processing

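Windows of 2.5 kb, summits in the window and equal list lengths left each count of members within 1.5 times. Ier3 accounts for the count of 1 gene marked, or with more bases, in both neomycin libraries alone: both counts were 0 at the start window, in the gene body, with 100 bp covered and when a -log10 q of 10 was required. That last threshold left 0 and 0 members marked with neomycin, 3 in untreated replicate 2, 0 in all 4, 3 untreated only and 3 with more untreated bases. With 0 members marked in all 4, none could enter the length fit at this threshold, and that fit is not reported here. Leaving out 1 library gave 1 to 2 neomycin-only, 0 to 2 untreated-only and 1 to 2 members with more neomycin bases (2 neomycin-only and 2 with more neomycin bases without untreated replicate 1, 2 untreated-only without neomycin replicate 2). By percentile of the longest peak, chosen after seeing the data, 3 members were higher untreated and 2 with neomycin. The cause was not tested.

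Genes called by limma, longer and shorter with neomycin, were 3 and 1 with 100 bp covered, 13 and 20 by span, 0 and 1307 without centring, and 0 to 114 and 0 to 189 with 1 library left out (the highest without neomycin replicate 2); where 1 library was left in a group it was assumed to vary like the others. The fit without neomycin replicate 2 held 5797 genes. The members' median was -2.07 without centring, 0.46 by span and 0.12 at the start window (4 members tested), and ran from -1.03 (without neomycin replicate 1, 7 members tested) to 0.014 (without untreated replicate 1) with 1 library left out. Directions turned for Egr1 at the start window (0.22), without neomycin replicate 1 (0.15) and without untreated replicate 1 (0.13); for Jun by span (0.69) and without neomycin replicate 2 (0.31); for Fosb without centring (-1.14) and without untreated replicate 2 (-0.030); and for Junb with 100 bp covered (-0.16), equal lists (-0.64), no centring (-1.58), genes marked in at least 1 library with 100 bp added to each length (-0.21), and without neomycin replicate 1 (-0.67) or untreated replicate 2 (-0.06). With 1 library left out, Fosb ran from -0.030 to 0.85, Jun from -1.22 to 0.31, Junb from -0.67 to 0.74 and Egr1 from -1.30 to 0.15. Jund was lower with neomycin in each fit that held it, but the start window, gene body and 100 bp fits did not hold it. The gene body and 100 bp fits lost Jund because its neomycin replicate 1 peak was 48 bp long and outside the gene. The replicate block gave 0 called genes each way and Jund at -1.87 (adjusted p 0.459). Same-numbered libraries did not deviate together (correlation -0.01 over 4343 genes). Without read totals, an uncalled peak cannot be told from too little depth.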
